A study of Mus musculus with 36 samples.

Results

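The comparison described here is that of the MSR-dCas9-Activator line at 24 h and at 12 h after the removal of doxycycline. It holds 6 of the 36 RNA-seq libraries of the series, 3 biological replicates at 24 h and 3 at 12 h, chosen by their labels alone, and it covers all gene and repeat rows of the count table. Of 54842 genes and 1561 repeat families, 28542 genes and 1492 repeat families had enough counts to be tested. The cells were mouse embryonic fibroblasts (MEF) that carried, by PiggyBac transposition, a doxycycline-inducible dCas9-VPR fusion (the Activator) and a constitutively expressed guide RNA against the major satellite repeats (MSR). The Control line carried the same guide with inducible dCas9 that had no effector domain. Both lines were hygromycin-selected mixed cultures and not single clones. The Activator line was given 10 ng/ml doxycycline for 6 h and the Control line 10 ng/ml for 24 h before the drug was washed out, so the length of induction differed between the lines. Uninduced cells received no doxycycline and carried the same constructs. The question the comparison addresses is whether the transcriptome of the Activator cells moved back towards the uninduced state during the second interval after dCas9-VPR induction or moved further away from it.

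Major satellite repeats are the tandem sequences of mouse pericentric heterochromatin, which is marked by H3K9 methylation, bound by HP1 proteins and gathered into the DAPI-dense chromocentres of the nucleus. Their transcription is normally kept low. VPR is a chain of transactivation domains that recruits coactivators and RNA polymerase II to the sequence that dCas9 is guided to. Cells that enter mitosis with disturbed pericentric chromatin can missegregate chromosomes, and p53, which induces cell cycle inhibitors and proapoptotic genes, is a well known part of the response to such errors.

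The 6 libraries held between 49457642 and 59230051 counts each. Pairwise correlations of log2 levels between them were 0.945 or higher, apart from those of 24 h replicate 2 with 12 h replicates 1 and 3, which were 0.896 and 0.909. In 12 h replicate 3, the large and small subunit rRNA repeat families took 5.345% of all counts, against 0.04661% to 0.07933% in the other 5 libraries, and counts that belong to rRNA-like features are given below with this library in view. The MEF label was checked against 14 fibroblast markers. None of the 14 was listed at 0 in all 6 libraries, and their summed normalised level (counts scaled to the mean effective library size) lay between 678100 and 769700 at 12 h and between 483700 and 876400 at 24 h, below the 1440000 to 1496000 of uninduced cells. Of the 13 markers tested, 4 rose (30.8%) and 2 fell (15.4%) from 12 h to 24 h, with a median of 0.40 on the log2 scale. That direction rested on 24 h replicate 2: without it, 3 rose and 5 fell, with a median of −0.31. Without the replicate block, the term for the replicate number in the fit, 3 rose and 0 fell. Twist1, a mesenchymal transcription factor, rose by 1.33 on the log2 scale (SE 0.25) and Pdgfra, a receptor for platelet-derived growth factor, by 1.31 (SE 0.38), while Col1a1 (collagen I) fell by 0.41 and Vim (vimentin) by 0.46. Of the marker lists of other cell types, the macrophage list summed to between 1177 and 1257 at 12 h and between 785.9 and 1123 at 24 h, the endothelial list to 1078 to 1471 and 351.8 to 1290, and the lymphocyte list to 168.5 to 250.7 and 83.17 to 225.4. The neuronal list summed to 291.2 to 605.7 and 447.6 to 825, the skeletal muscle list to 285 to 330.8 and 137.7 to 298.8, the adipocyte list to 280.2 to 334.9 and 78.39 to 283.9, the erythroid list to 274 to 384.2 and 275.4 to 400.6, the epithelial list to 128.1 to 180.6 and 113.8 to 180.8, and the germ cell and pluripotency list to 92.44 to 138.3 and 61.19 to 125.5. The part of such markers in the results below was not tested. In these bulk libraries, fewer cells of a kind and less RNA per cell cannot be told apart.

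Genes that had fallen early after induction moved back up between 12 h and 24 h. By 6 h after doxycycline removal, 2911 genes were lower than in uninduced cells in libraries that do not enter the comparison of 24 h with 12 h. They were lower by more than 2-fold at an adjusted p below 0.05, with a mean normalised count above 100 over the 6 h and uninduced libraries. Of these 2911 genes, 2403 (82.5%) rose from 12 h to 24 h at an adjusted p below 0.05 (edgeR quasi-likelihood test), 0 fell, and 508 did not pass. Across all genes tested, 18.2% rose and 17% fell by the same rule. Many of these had fewer counts than the 2911 genes needed. Among genes with 100 to 1000 normalised counts in uninduced cells, 1982 of 6294 rose and 866 fell. Above 1000 counts, 2016 of 7058 rose and 1872 fell. The median change of the 2911 genes was 0.79 on the log2 scale, against −0.05 for all genes tested, and it was 0.84, 0.72 and 0.84 in replicate pairs 1, 2 and 3. In the Control line, 6 of the same genes rose, 4 fell, and their median change was close to 0 in size, at −8.2e-05.

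The return was partial at 24 h. Against the uninduced mean, the median level of the 2911 genes was −1.52 on the log2 scale at 6 h, −1.45 at 12 h and −0.69 at 24 h, all 3 comparisons sharing the uninduced libraries. Library by library the medians were −1.82, −1.01 and −1.62 at 12 h for replicates 1, 2 and 3 and −1.02, −0.29 and −0.80 at 24 h. Replicate 2 lay closest to the uninduced level at both times, and the 24 h range touched the 12 h range, with 24 h replicate 1 at −1.02 and 12 h replicate 2 at −1.01. The count of genes that rose was 1544 without 24 h replicate 2 and 1574 without 12 h replicate 1, and under these and the other 4 omissions it was never above 2568. With the counts scaled to the mitochondrially encoded mRNAs in place of all genes, 6551 genes had fallen by 6 h and 3700 of them rose.

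**Figure D1:**
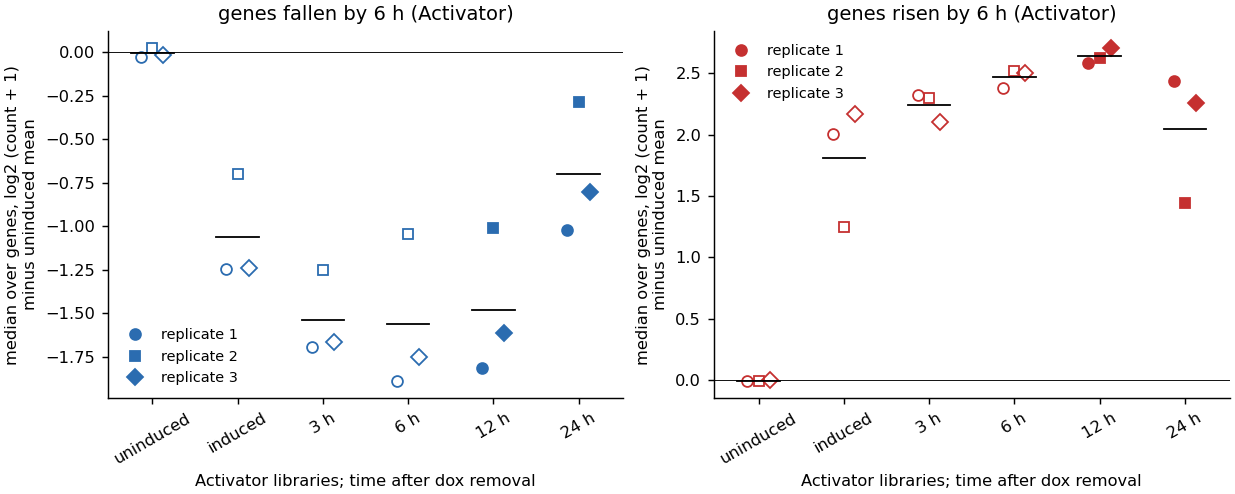
Median log2 level relative to the uninduced mean of the 2911 genes that had fallen by 6 h and of the 1242 that had risen. Each point is 1 Activator library, along the time after doxycycline removal. The fallen genes stand at −1.82, −1.01 and −1.62 at 12 h and at −1.02, −0.29 and −0.80 at 24 h.

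Among genes that had risen early, falls between 12 h and 24 h were less uniform. By the rule used for the fallen genes, 1242 genes were higher at 6 h than in uninduced cells. Of these, 699 (56.3%) fell, 2 rose and 541 did not pass, with a median change of −0.62. The fall was −0.28 in replicate pair 1, −1.22 in pair 2 and −0.51 in pair 3. Their median level above the uninduced mean was 2.49 at 6 h, 2.66 at 12 h and 2.08 at 24 h on the log2 scale, so most of the early rise was still present at 24 h. The library medians were 2.59, 2.63 and 2.71 at 12 h and 2.44, 1.44 and 2.26 at 24 h. All 3 libraries at 24 h lay below all 3 at 12 h, with 24 h replicate 2 lowest. Without 24 h replicate 2, 275 genes fell, without the block 438, and with the counts scaled to the mitochondrially encoded mRNAs 588 genes had risen by 6 h and 87 of them fell. The 2 genes that had risen and then rose further were Cdkn1a, the p53-induced inhibitor of cyclin-dependent kinases, and P2rx7, an ATP-gated ion channel. Cdkn1a stood at 925.5, 704.8 and 865 normalised counts at 12 h and at 1599, 737.1 and 1744 at 24 h, after 106.9, 212.2 and 168 in uninduced cells, and its change of 0.68 (SE 0.22, edgeR adjusted p = 0.0183) was 0.66 in the Control line.

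Among early risers, falls passed most often in genes that uninduced cells hardly transcribed. Of the 1242 early risers, 279 had at most 10 normalised counts in uninduced cells, and 229 of them (82.1%) fell, with a median of −1.07. The change of these 279 genes was −0.55, −1.97 and −0.90 in replicate pairs 1, 2 and 3, and so was largest in pair 2. Of the 963 risers above 10 counts, 470 (48.8%) fell, with a median of −0.53. Early risers needed a mean above 100 over the 6 h and uninduced libraries. Those with at most 10 uninduced counts could therefore enter only with a very large rise. The median rise at 6 h was 7.21 on the log2 scale for the 279 genes and 1.84 for the 963. A low uninduced level and a large early rise cannot be told apart in this split. By the call rule for genes (adjusted p below 0.05, more than 2-fold, mean normalised count above 100), 736 genes were called higher and 365 lower at 24 h, which is 2.58% and 1.28% of the genes tested. Of the 736 called higher, 684 (92.9%) belonged to the early fallen genes and made up 23.5% of them. Of the 365 called lower, 245 (67.1%) belonged to the early risers and made up 19.7% of them. Split by the uninduced level, genes with at most 10 normalised counts held 3 called higher and 253 called lower, those with 10 to 100 counts 15 and 87, those with 100 to 1000 counts 367 and 15, and those above 1000 counts 351 and 10. The call rule asks for a mean above 100 over 12 h and 24 h. Genes under 100 counts in uninduced cells could thus be called only where they stood higher at these times, which favours falls. At an adjusted p below 0.05 alone (edgeR), 103 of 7633 genes with at most 10 counts rose and 1545 fell. With 10 to 100 counts, 1092 of 7557 rose and 581 fell (median 0.20). With 100 to 1000 it was 1982 and 866 of 6294, and above 1000 2016 and 1872 of 7058. By annotation, 594 protein-coding genes were called higher and 268 lower, and 131 and 69 long noncoding or unclassified transcripts, 6 and 20 pseudogenes, and 5 and 8 other genes. The number of called genes was 558 without 24 h replicate 2, 721 without 12 h replicate 1, 1661 without 12 h replicate 2 and 1701 without 24 h replicate 1. The balance of rises and falls depended on the scaling. The median change of all genes was −0.05, and it was −0.16 with DESeq2 size factors, 0.14 with library sizes alone and 0.22 with mitochondrially encoded mRNAs as reference. Under these 3 scalings 497, 1361 and 1520 genes were called higher and 551, 173 and 77 lower. At an adjusted p below 0.05, 5193 genes were higher and 4864 lower, and the alternatives gave 4253 and 6668, 7509 and 2089, and 5443 and 522.

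**Figure D2:**
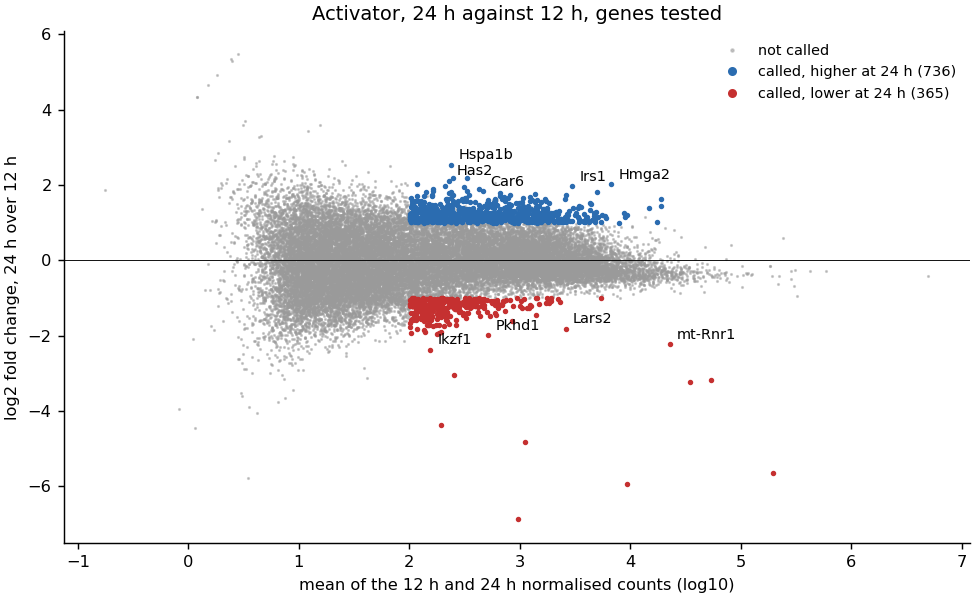
Log2 change from 12 h to 24 h in the Activator line (vertical axis) against the mean normalised count on a log axis (horizontal axis), 1 point per gene, with called genes coloured. The 736 genes called higher are mostly moderately to highly expressed genes, and the 365 called lower lie further to the left.

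In the Control line over the same interval, 21 genes were called higher and 2 lower, and 92 genes (0.322%) passed at an adjusted p below 0.05. Leaving out 1 Control library at a time gave 0 to 34 called genes, with 0 without 12 h replicate 2, 1 without 12 h replicate 3, 1 without 24 h replicate 1 and 3 without 24 h replicate 2. DESeq2 called 66, and 3061 genes had an unadjusted p below 0.05. By the call rule, the change from 12 h to 24 h was higher in the Activator than in the Control line for 742 genes and lower for 189. The 3 other scalings gave 575 and 270, 1082 and 111, and 1472 and 29. At an adjusted p below 0.05 it differed between the lines (interaction term, edgeR) with a higher value in the Activator line for 2623 genes (9.19%) and a lower value for 1513 (5.3%). Of the 2911 early fallen genes, the interaction passed in 1361 in the direction of a larger rise in the Activator line and in 3 in the other direction. Of the 1242 early risers it passed in 223 in the direction of a lower value in the Activator line and in 1 in the other. Of these 223 genes, 6 were among the 279 with at most 10 uninduced counts and 217 among the 963 above 10.

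Among the 10 genes with the largest rise, Hspa1b came first. It encodes an inducible cytosolic HSP70 chaperone and lies at chr17:34956436-34959238 (GRCm38). Its normalised counts were 49.72, 76.07 and 94.66 at 12 h and 440.2, 251.4 and 514.4 at 24 h, a 5.81-fold rise (log2 2.54, SE 0.31, edgeR adjusted p = 2.8e-06). All 24 h libraries were above all 12 h libraries and above the uninduced 73.05, 130.1 and 88.86, and Control libraries stayed between 62.46 and 160.7. Reads of Hspa1b and its near-identical neighbour Hspa1a are hard to assign, so the value may cover both. The promoter of Hspa1b (chr17:34959239-34959488, minus strand, the 250 bases upstream of the RefSeq start in GRCm38.p6) is shown because this gene rose most. Capitals mark a match to GAANNTTC, the core of a heat shock element, searched on both strands.
Hspa1b promoter: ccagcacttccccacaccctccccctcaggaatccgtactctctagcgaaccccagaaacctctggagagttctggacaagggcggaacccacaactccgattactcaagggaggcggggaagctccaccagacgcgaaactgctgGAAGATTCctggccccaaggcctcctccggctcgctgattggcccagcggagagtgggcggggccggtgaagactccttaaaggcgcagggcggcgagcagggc

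Has2, Hmga2, Irs1, Foxf2 and Apln were also among the 10, and each of these 5 genes had been lower at 12 h than in uninduced cells. Has2, the main hyaluronan synthase of fibroblasts (chr15:56665627-56694539), went from 56.83, 131.9 and 62.62 normalised counts at 12 h to 285, 434 and 399.6 at 24 h (log2 2.11, SE 0.32, edgeR adjusted p = 4.1e-05), still below the uninduced 1174, 620.6 and 1102. Hmga2, an architectural chromatin protein of embryonic and proliferating cells (chr10:120361275-120476469), went from 2092, 3667 and 2125 to 9049, 12350 and 11160 (log2 2.03, SE 0.31), within reach of the uninduced 15910, 10400 and 11130. The groups did not overlap for either gene. In the Control line over the same interval, their changes were −1.04 and −1.06 and did not pass (edgeR adjusted p = 0.117 and 0.128). Has2 had 861.9, 786.6 and 959.5 at 12 h and 348.7, 362.6 and 574 at 24 h there, and Hmga2 had 32170, 31040 and 44650 and then 14670, 14300 and 22900. Apln, the ligand of the apelin receptor, rose by 1.89 (SE 0.32), from 41.61, 96.29 and 69.9 to 220.1, 278.2 and 272.6, and its Control change of −1.15 did not pass (edgeR adjusted p = 0.0733). Foxf2, a mesenchymal forkhead factor, rose by 1.95 (SE 0.31), from 77.12, 187.8 and 119.4 to 367.9, 471.3 and 658.9. Irs1, the insulin receptor substrate, rose by 1.98 (SE 0.52) with overlapping groups, 519.6, 2426 and 700.4 at 12 h and 1991, 8871 and 3321 at 24 h. Replicate 2 was the highest at both times for this gene.

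The other 4 of the 10 were Gvin1, Zfp970, Car6 and Efcab6. Car6, a secreted carbonic anhydrase, rose as much in the Control line (1.91) as in the Activator line (1.83, SE 0.22), and the difference between the lines did not pass (edgeR adjusted p = 0.94). Gvin1, an interferon-inducible GTPase with close paralogs that can share its reads, had the second largest change, 2.19 (SE 0.65, edgeR adjusted p = 0.0125). Its values were 12.18, 266.7 and 65.53 at 12 h and 65.92, 1262 and 302.4 at 24 h, a spread between replicates far wider than for the other genes. Gvin1 also changed by 1.63 (SE 0.88) in the Control line, which did not pass. The difference between the lines did not pass for this gene either (edgeR adjusted p = 0.81). Zfp970, a zinc finger gene, rose by 1.96 (SE 0.32), from 48.71, 146.4 and 61.16 to 190.3, 572.7 and 251.7. Efcab6, an EF-hand protein gene that uninduced cells had at 0 to 6.006 normalised counts, went on rising, from 47.69, 83.77 and 84.46 to 280.7, 159.7 and 322.3. It had at most 2.822 in the Control libraries at these times, and its difference between the lines did not pass (edgeR adjusted p = 0.28).

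The 10 genes with the largest fall were of 2 kinds. The first were genes of other tissues that uninduced fibroblasts had at or near 0. Ikzf1, the lymphoid zinc finger factor Ikaros (chr11:11685003-11772926), was listed at 0 in all 3 uninduced libraries, stood at 278.1, 183 and 300 normalised counts at 12 h, and fell to 104.2, 5.736 and 52.98 at 24 h (log2 −2.37, SE 0.50, edgeR adjusted p = 0.00223). Pkhd1, the fibrocystin gene of kidney and bile duct epithelium, fell from 1123, 378.4 and 907.2 to 413.6, 56.41 and 208.6 (log2 −1.99, SE 0.28), and Mgam, an intestinal maltase, from 348.1, 243.6 and 275.2 to 123.3, 39.2 and 80.57. The group also held Olfr548-ps1, Olfr366 and Vmn2r2 of the chemosensory receptors, Tex11, a meiotic gene, and Rps4l, a paralog of a ribosomal protein gene, with log2 changes between −1.96 and −1.77. In this group 24 h replicate 2 was the lowest library for every gene named. Reads of receptor and ribosomal protein genes may be shared with close copies.

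The second kind was mt-Rnr1, the mitochondrial small subunit rRNA, and Lars2, a mitochondrial leucyl-tRNA synthetase whose gene is known to hold an rRNA-like segment. Both were set by 12 h replicate 3. The levels of mt-Rnr1 were 20020, 7246 and 81210 at 12 h and 13700, 7102 and 7351 at 24 h, and those of Lars2 were 1470, 957.1 and 9962 and then 1302, 723.7 and 1234. Their 12 h and 24 h values overlap, and 12 h replicate 3 is the library in which rRNA repeat families took 5.345% of counts.

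**Figure D3:**
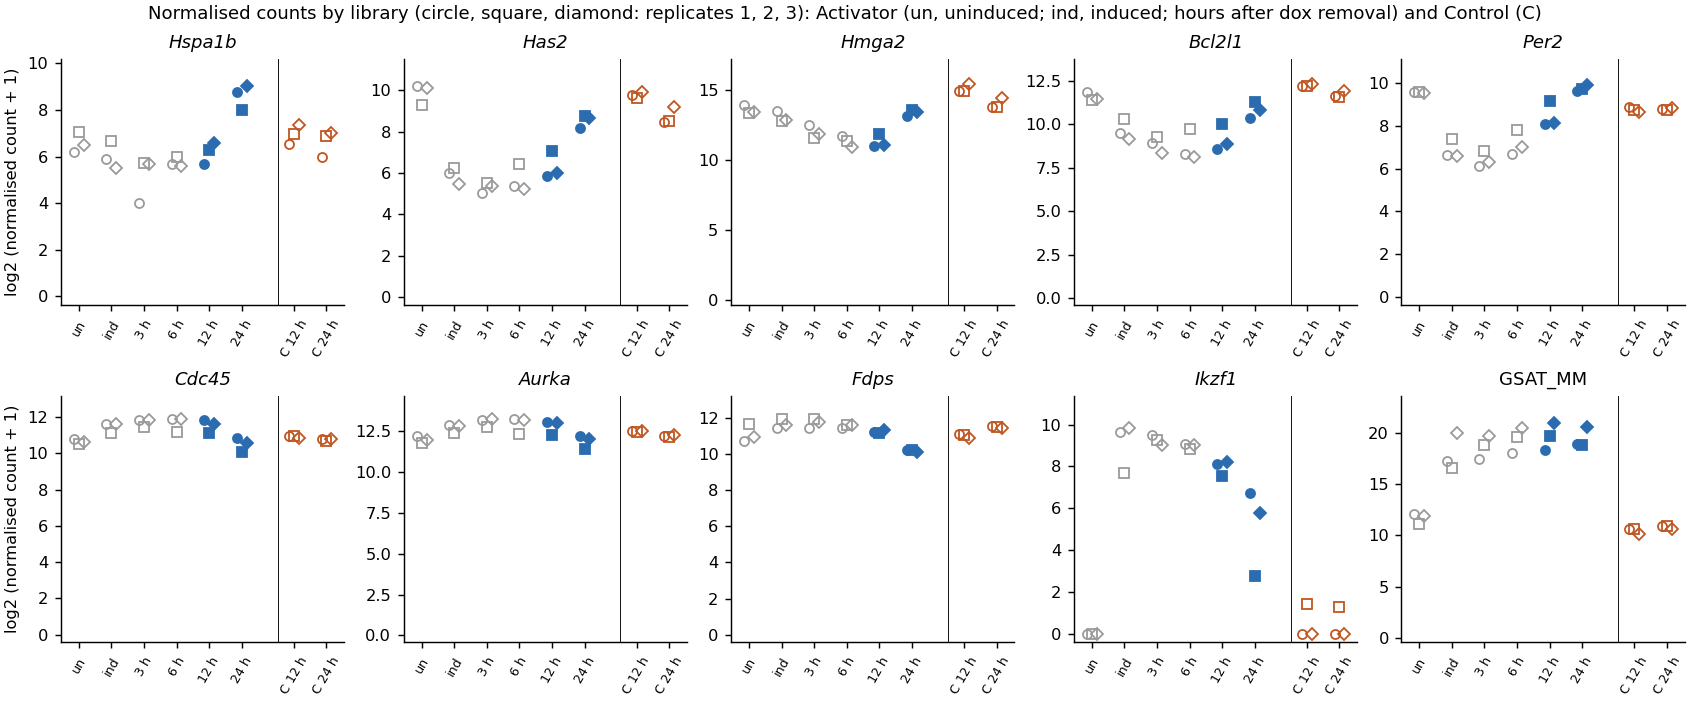
Normalised counts on log axes of Hspa1b, Has2, Hmga2, Bcl2l1, Per2, Cdc45, Aurka, Fdps, Ikzf1 and GSAT_MM in the Activator libraries over time (grey, and blue at 12 h and 24 h) and in the Control libraries (orange), with circle, square and diamond for replicates 1, 2 and 3. The 24 h values of Hspa1b, Has2, Hmga2, Bcl2l1 and Per2 lie above the 12 h values, those of Cdc45, Aurka, Fdps and Ikzf1 lie below, and those of GSAT_MM overlap.

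Most genes of DNA replication and of mitosis fell between 12 h and 24 h. Of 50 replication genes, 33 fell (66%) and 7 rose (14%), with a median of −0.44 on the log2 scale. Of 52 genes of mitosis and G2/M, 37 fell (71.2%) and 5 rose (9.62%), with a median of −0.54. Of all genes tested, 17% fell and 18.2% rose. Relative to the uninduced mean, the mitosis list had a median of 0.10 at 6 h, −0.13 at 12 h and −0.70 at 24 h. The replication list had 0.22, 0.04 and −0.50 at these times. In the Control line the medians from 12 h to 24 h were −0.14 and −0.13, 0 of the mitosis genes and 1 of the replication genes fell, and the difference between the lines passed in the direction of a lower value in the Activator line for 20 mitosis and 14 replication genes. These falls depended on the scaling in size: with the mitochondrially encoded mRNAs as reference, 18 mitosis and 13 replication genes fell, with medians of −0.25 and −0.15 while the median of all genes was 0.22.

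Cdc45, a subunit of the replicative helicase, showed the largest fall of the replication list, from 3663, 2189 and 3125 normalised counts at 12 h to 1835, 1078 and 1500 at 24 h (log2 −1.02, SE 0.12, edgeR adjusted p = 2.8e-06). Uninduced cells had 1792, 1478 and 1553. Mcm5, another subunit of that helicase, fell by 0.90 (SE 0.14) and Pold2, a subunit of DNA polymerase delta, by 0.84 (SE 0.12), and for these 3 genes all 24 h libraries lay below all 12 h libraries. The members that rose were mostly ones that had been low at 12 h. Wdhd1, a replisome adaptor, rose from 589.6, 683.7 and 543.2 to 951.6, 1215 and 913.9 (log2 0.76, SE 0.11), after 2754, 2150 and 2183 in uninduced cells. Tk1, thymidine kinase, rose by 0.62 (SE 0.13) and also remained under its uninduced level.

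In the mitosis list, Smc2, the ATPase core of condensin, fell from 13120, 8160 and 11050 normalised counts to 6316, 4527 and 5353 (log2 −0.99, SE 0.14, edgeR adjusted p = 9.7e-06), below the uninduced 9116, 7123 and 7232. Aurka, the Aurora A kinase of the spindle poles, fell from 8555, 4919 and 8114 to 4657, 2652 and 4065 (log2 −0.92, SE 0.14), against 4652, 3489 and 3853 in uninduced cells. Cdc25c, a phosphatase that activates CDK1 at mitotic entry, fell by 0.90 (SE 0.15). Again no 24 h library reached the 12 h range. Cdc25b, a related phosphatase, rose instead by 0.92 (SE 0.17), and Sgo2a, a shugoshin that protects cohesin at centromeres, by 0.74 (SE 0.11), from 478, 643.2 and 509.7 to 818.7, 1088 and 821.2.

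The promoters of Aurka (chr2:172370571-172370820, minus strand) and Smc2 (chr4:52438971-52439220, plus strand), the 250 bases upstream of the RefSeq start in GRCm38.p6, are shown since mitotic genes often carry a CCAAT box and a cell cycle homology region there. Capitals mark CCAAT or ATTGG and, in Smc2, TTCAAA, the reverse strand of the cell cycle homology letters TTTGAA.
Aurka promoter: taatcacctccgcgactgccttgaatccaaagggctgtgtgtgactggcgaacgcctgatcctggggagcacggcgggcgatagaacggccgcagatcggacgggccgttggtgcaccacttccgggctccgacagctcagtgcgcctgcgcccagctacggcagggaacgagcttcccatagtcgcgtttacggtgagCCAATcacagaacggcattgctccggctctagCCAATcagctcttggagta
Smc2 promoter: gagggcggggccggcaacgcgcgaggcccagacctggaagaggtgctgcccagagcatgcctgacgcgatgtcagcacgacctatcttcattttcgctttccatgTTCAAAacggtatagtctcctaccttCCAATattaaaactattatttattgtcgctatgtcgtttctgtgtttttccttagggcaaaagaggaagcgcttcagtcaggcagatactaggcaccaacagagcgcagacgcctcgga
CCAAT or ATTGG was found in 32 of the 43 mitosis promoters that RefSeq matched (74.4%), in 23 of 30 whose gene fell and in 4 of 5 whose gene rose, and in 34.5% of all 27025 promoters of the same length. TTTGAA or TTCAAA was found in 15 of the 43 (34.9%), in 12 of the 30 whose gene fell and in 1 of the 5 whose gene rose. It was found in 16.3% of all promoters and in 12.3% of those of genes tested. A match of either kind is a run of letters in this window and was not measured as a bound site.

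Of 69 replication-dependent histone genes, 14 (20.3%) fell and 3 rose (median −0.50). This share of falls was near the 17% of all genes tested, and reads of these near-identical genes may be shared. Hist1h4i fell by 1.13 (SE 0.26), from 2625, 2387 and 2580 to 1108, 1115 and 1297, and Hist1h4c by 1.01 (SE 0.27). The number of falls was 8 without the replicate block, 8 without 12 h replicate 1, 9 without 24 h replicate 3 and 22 without 24 h replicate 1. Of 16 D-type cyclins, their kinases and CDK inhibitors, 7 rose (43.8%) and 3 fell (18.8%). The share of falls was near the 17% of all genes tested. Cdkn1b (p27) rose from 554.1, 1137 and 511.1 to 1214, 2301 and 1272 (log2 1.14, SE 0.26, edgeR adjusted p = 0.00179), and Cdkn2b (p15) by 1.22 (SE 0.44), with overlapping groups. Cdk4, the partner of the D cyclins, fell by 0.39. Without 12 h replicate 3, without 24 h replicate 2, and likewise without the block, 4 of this list rose.

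**Figure D4:**
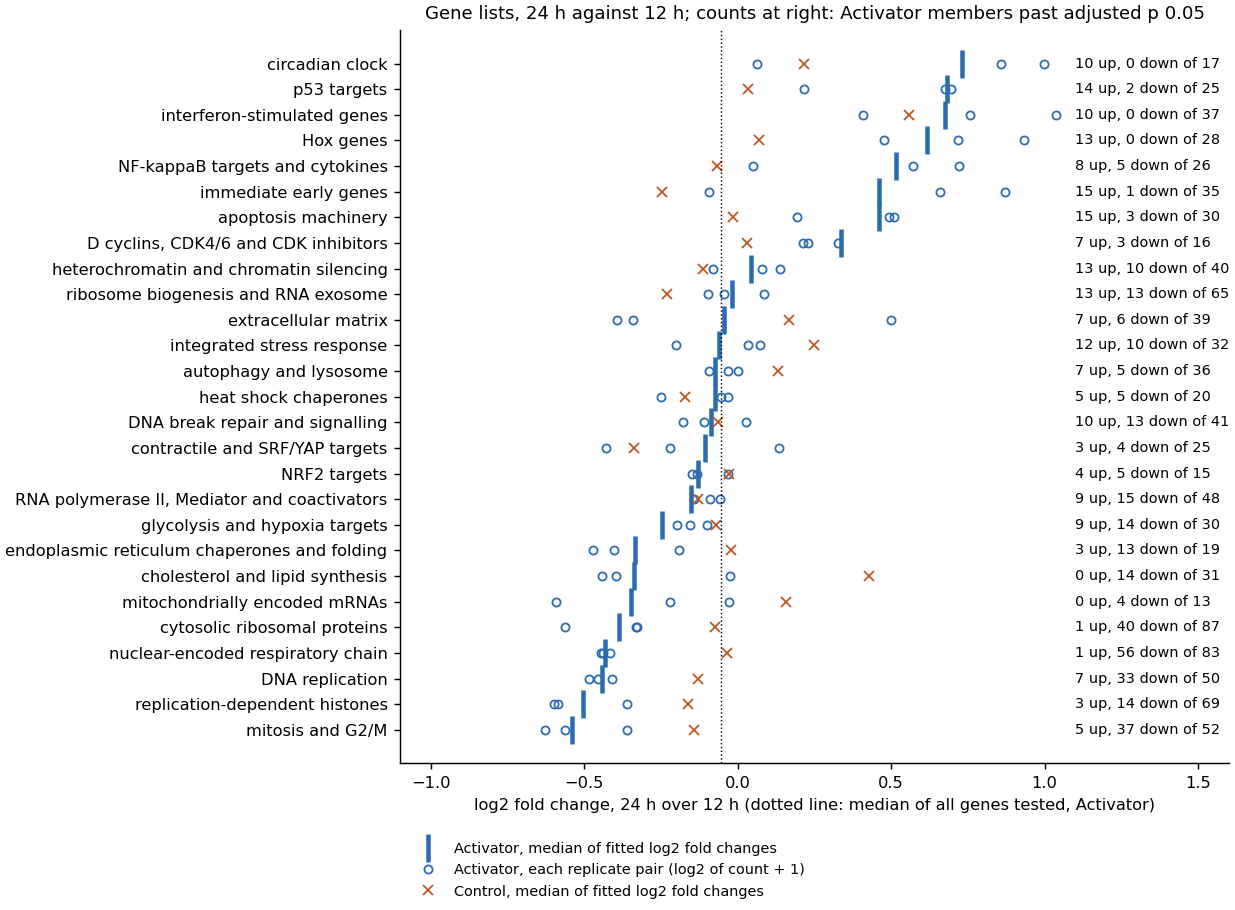
Log2 change from 12 h to 24 h of each gene list. Bars mark the median of the fitted changes in the Activator line and crosses that in the Control line. Open circles are the list medians of the Activator replicate pairs, and single genes are not drawn. In the Activator line, mitosis and replication lie below 0, with medians of −0.54 and −0.44. The p53 targets, the circadian clock and Hox genes lie above it, with medians of 0.68, 0.73 and 0.62.

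Of 25 p53 targets, 14 rose (56%), 2 fell (8%) and 9 did not pass (median 0.68), against 18.2% and 17% of all genes tested. In the Control line 1 rose and 0 fell (median 0.03). Without Activator 12 h replicate 1, 8 of the targets rose. The medians were 0.67, 0.22 and 0.70 in replicate pairs 1, 2 and 3. Relative to the uninduced mean, the list median was −0.70 at 6 h, −0.26 at 12 h and −0.07 at 24 h, so it did not pass above the uninduced level. Phlda3, an inhibitor of AKT, rose by 1.12 (SE 0.30), from 211.1, 587.4 and 298.5 to 526.3, 976.1 and 874.2, and remained under its uninduced 1383, 1486 and 1699. Gadd45a, a growth arrest and DNA damage gene, rose by 1.09 (SE 0.21), from 386.6, 621.1 and 493.7 to 1172, 821.2 and 1108, above its uninduced 253, 494.5 and 294.7. Gadd45a also changed by 0.96 in the Control line, and its difference between the lines did not pass (edgeR adjusted p = 0.83). Sesn1, a stress-induced sestrin, rose by 1.00 (SE 0.27). Bax, the proapoptotic effector, fell by 0.25 (SE 0.08), a change that was 0.02 under the scaling to mitochondrially encoded mRNAs.

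Of 30 genes of the apoptosis machinery, 15 rose (50%), 3 fell (10%) and 12 did not pass (median 0.46), and 9 rose without 12 h replicate 1. The shares over all genes tested were 18.2% and 17%. Relative to the uninduced mean, the median of this list was −0.735 at 6 h, −0.75 at 12 h and −0.50 at 24 h. The risers held inhibitors and inducers of cell death alike. Bcl2l1 (BCL-XL), which blocks apoptosis at mitochondria, rose from 385.6, 1021 and 473.3 normalised counts to 1299, 2479 and 1775 (log2 1.59, SE 0.32, edgeR adjusted p = 8.2e-04), with all 24 h libraries above all 12 h libraries and below the uninduced 3669, 2707 and 2847. Bcl2l11 (BIM), which promotes it, rose by 0.94 (SE 0.21). Diablo (SMAC), an antagonist of caspase inhibitors, fell from 2005, 2548 and 2359 to 1528, 1109 and 1538 (log2 −0.73, SE 0.12), still above the uninduced 890.9, 889.9 and 813.8.

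DNA break repair genes divided, with 10 of 41 higher (24.4%) and 13 lower (31.7%), against 18.2% and 17% of all genes tested. Chek2, the checkpoint kinase, rose by 0.96 (SE 0.16) and Xrcc2, of homologous recombination, by 0.97 (SE 0.16), both towards their uninduced levels, and Brca2, which acts in the same repair pathway, fell from 2669, 2790 and 2981 to 2057, 1778 and 1844 (log2 −0.57, SE 0.12). Fancd2, of the Fanconi pathway, fell by 0.59 (SE 0.09). The median of this list was −0.09, and it was 0.12 with library sizes in place of the trimmed mean scaling and 0.21 with mitochondrially encoded mRNAs as reference, so no direction is given for it.

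The chaperones of the endoplasmic reticulum moved in opposite ways. Of 19 genes, 13 fell (68.4%) and 3 rose (15.8%), against 17% and 18.2% of all genes tested (median −0.33). There were 8 falls without 12 h replicate 1 and 1 under the scaling to mitochondrially encoded mRNAs. Hspa5 (BiP), the main lumenal HSP70, rose from 13820, 16090 and 13970 to 24430, 26430 and 28050 (log2 0.85, SE 0.09, edgeR adjusted p = 3.3e-07), close to the uninduced 29150, 30230 and 26830. Dnajb9, a BiP cofactor, rose by 1.06 (SE 0.17), to 1573, 1091 and 1427 from 574.4, 720.3 and 683, above its uninduced level. Hsp90b1 (GRP94), the lumenal HSP90, fell by 0.75 (SE 0.12), from 33750, 23740 and 30490 to 16790, 20190 and 15290, and Canx (calnexin) by 0.55 (SE 0.10). Of 20 heat shock chaperones, 5 rose (25%) and 5 fell (25%), against 18.2% and 17% of all genes tested. Without 12 h replicate 2 it was 4 and 8, and without the block 4 and 3. Beside Hspa1b, the small heat shock protein gene Hspb8 rose by 1.00 (SE 0.12), and Hsp90ab1, the constitutive cytosolic HSP90, fell by 0.71 (SE 0.14). GAANNTTC was found in 6 of 15 heat shock promoters (40%), in 1 of 5 whose gene rose and in 2 of 4 whose gene fell. It was found in 6.78% of all promoters and in 5.53% of those of genes tested. Of 32 genes of the integrated stress response, 12 rose (37.5%) and 10 fell (31.2%). The balance turned with single libraries and the scaling, with 14 and 2 without 24 h replicate 2, 6 and 11 without 24 h replicate 3, 6 and 3 without 12 h replicate 1, 6 and 8 without the block, and 13 and 0 with mitochondrially encoded mRNAs as reference. Chac1 and Nupr1, both induced by ATF4, rose by 1.31 (SE 0.24) and 1.25 (SE 0.20), and their Control changes were 0.87 and 0.94, of which that of Nupr1 passed. Gars, a glycyl-tRNA synthetase, fell by 0.41 (SE 0.08). Of 15 NRF2 targets, 4 rose (26.7%) and 5 fell (33.3%). Srxn1 (sulfiredoxin) was up by 1.20 (SE 0.12), from 396.8, 648 and 431 to 922.9, 1378 and 1085, and Hmox1 (haem oxygenase) by 0.76 (SE 0.17).

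Immediate early genes, which growth factors and stress induce first, rose in 15 of 35 (42.9%) and fell in 1 (2.86%), with a median of 0.46. Of all genes tested, 18.2% rose and 17% fell. A higher change in the Activator than in the Control line was found for 13 of the 35. The number that rose was 8 without the block, 4 without 12 h replicate 1, 5 without 12 h replicate 3 and 8 without 24 h replicate 3. Ccn2 (CTGF), a matricellular target of YAP, rose from 894, 1517 and 1168 to 2848, 4583 and 4612 (log2 1.72, SE 0.43, edgeR adjusted p = 0.00459), and in the Control line it had 3501, 3918 and 5344 and then 1220, 1394 and 2702, which did not pass (edgeR adjusted p = 0.208). Fosl1 (FRA1), an AP-1 subunit, rose from 1459, 1896 and 2104 to 5642, 3189 and 6268 (log2 1.43, SE 0.24), above the uninduced 1228, 567.6 and 872.3. Dusp6, a phosphatase of ERK, rose by 1.26 (SE 0.39).

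Of 37 interferon-stimulated genes, 10 rose (27%) and 0 fell (median 0.68), against 18.2% and 17% of all genes tested. The Control line had a median of 0.56 with 0 of these genes past the test, and the difference between the lines passed in 0 of the 37. The replicates differed widely. Xaf1, a proapoptotic interferon target, had 189.8, 1559 and 420.9 at 12 h and 593.3, 4076 and 1455 at 24 h, and Ifi44 had 9.133, 315.8 and 33.49 and then 42.53, 837.5 and 187.6, with replicate 2 the highest at both times. The count of rises was 2 without the block, 1 without 12 h replicate 1, 2 without 12 h replicate 3, 1 without 24 h replicate 2 and 18 without 12 h replicate 2. Of 26 NF-kappaB targets and cytokines, 8 rose (30.8%) and 5 fell (19.2%), the latter near the 17% of all genes tested. It was 5 and 3 without 24 h replicate 2 and 7 and 3 without the block. The chemokine gene Ccl7 rose from 72.05, 186.8 and 154.4 to 232.9, 616.6 and 374.2 (log2 1.57, SE 0.31), and Csf1, the macrophage growth factor, by 1.25 (SE 0.29), while Relb, an NF-kappaB subunit, fell by 0.69 (SE 0.14).

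Extracellular matrix genes depended on 1 library. Of 39, 7 rose (17.9%) and 6 fell (15.4%), near the 18.2% and 17% of all genes tested. Without 24 h replicate 2 the counts were 1 and 15, and without the block 4 and 3. Thbs1 (thrombospondin) rose by 1.40 (SE 0.34). Sparc (osteonectin) fell by 0.69 (SE 0.13), with 30840 and 28710 in 24 h replicates 1 and 3 and 40540 in replicate 2. Of 25 contractile genes and SRF or YAP targets, 3 rose (12%) and 4 fell (16%), shares no larger than those over all genes. Without 24 h replicate 2, 1 rose and 9 fell. Without the block, 2 rose and 1 fell.

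Of 31 genes of cholesterol and lipid synthesis, 14 fell (45.2%), 0 rose and 17 did not pass (median −0.34), against 17% and 18.2% of all genes tested. In the Control line 2 rose and 0 fell (median 0.43). The difference between the lines passed for 16 of the 31, each with the lower value in the Activator line. Relative to uninduced cells the list median went from −0.21 at 6 h to −0.62 at 12 h and −1.02 at 24 h. Fdps, which makes farnesyl diphosphate, fell from 2400, 2256 and 2545 to 1191, 1179 and 1123 (log2 −1.05, SE 0.15, edgeR adjusted p = 1.9e-05), and in the Control line it stood at 2178, 2106 and 1856 and then at 2941, 2887 and 2793. Mvk, mevalonate kinase, fell by 0.97 (SE 0.14) and Scd2, a stearoyl-CoA desaturase, by 0.88 (SE 0.24), the latter with overlapping groups. With mitochondrially encoded mRNAs as reference, 3 of the 31 fell.

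Falls were found among genes of energy metabolism and the ribosome. Of 83 nuclear-encoded respiratory chain genes, 56 fell (67.5%) and 1 rose (1.2%), against 17% and 18.2% of all genes tested (median −0.43). The list median above uninduced cells went from 0.59 at 12 h to 0.17 at 24 h. The ATP synthase subunit genes Atp5g2 and Atp5g3 fell by 0.73 (SE 0.12) and 0.70 (SE 0.15). The count of falls was 34 without the block, 22 without 12 h replicate 1, 27 without 24 h replicate 2, 37 without 12 h replicate 3 and 4 under the scaling to mitochondrially encoded mRNAs. Of 87 cytosolic ribosomal protein genes, 40 fell (46%), 1 rose (1.15%) and 46 did not pass (median −0.39), with Rps4x down by 0.66 (SE 0.14). That count ranged widely: 13 without the block, 6 without 12 h replicate 1, 6 without 24 h replicate 2, 11 without 12 h replicate 3, 71 without 24 h replicate 1, 72 without 12 h replicate 2 and 2 under the mitochondrial scaling. Of the 13 mitochondrially encoded mRNAs, 4 fell (30.8%), 0 rose and 9 did not pass. Their share of all counts was 1.745% ± 0.3637 (SD, n = 3) at 12 h and 1.631% ± 0.3061 at 24 h (exact two-sided permutation test, p = 0.7, with 0.1 the smallest p that 3 against 3 allows). Without 12 h replicate 1 or 24 h replicate 2, 0 of the 13 fell, 1 fell without the block, and 10 fell without 12 h replicate 2. Of 30 genes of glycolysis and hypoxia, 9 rose (30%) and 14 fell (46.7%), with a median of −0.25. Without 12 h replicate 1 it was 4 and 7, and with mitochondrially encoded mRNAs as reference 9 and 1, with a median of 0.02. Vegfa, the angiogenic growth factor, rose by 1.15 (SE 0.25) and Hk2, a hexokinase, by 1.06 (SE 0.20), and Ldha, lactate dehydrogenase, fell by 0.81 (SE 0.14).

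Of 65 genes of ribosome biogenesis and the RNA exosome, 13 rose and 13 fell, near the shares over all genes. Without the block it was 11 and 6, without 24 h replicate 2 13 and 7, and without 12 h replicate 1 8 and 5. Utp3, a processing factor of the small ribosomal subunit, rose from 344, 441 and 362.6 to 792.1, 917.8 and 838.9 (log2 1.15, SE 0.12, edgeR adjusted p = 5.2e-07), and Exosc7, a subunit of the exosome ring, by 1.08 (SE 0.14). Exosc10, an exosome nuclease, fell by 0.53 (SE 0.11). Of 48 genes of RNA polymerase II, Mediator and coactivators, 9 rose (18.8%) and 15 fell (31.2%). The share of rises was near the 18.2% of all genes tested, of which 17% fell. It was 6 and 8 without the block, 9 and 9 without 24 h replicate 2, and 4 and 7 without 12 h replicate 1. Med22 of the Mediator head rose by 0.96 (SE 0.12), from 637.3, 883 and 650.9 to 1158, 1532 and 1549, and Cdk8 of its kinase module by 0.67 (SE 0.11). Of 36 genes of autophagy and the lysosome, 7 rose (19.4%) and 5 fell (13.9%), near the 18.2% and 17% of all genes. The counts were 6 and 2 without the block, 2 and 4 without 12 h replicate 1, and 5 and 7 without 24 h replicate 3. They were 4 and 12 with DESeq2 size factors and 12 and 0 with library sizes alone. Ulk1, which starts autophagy, rose by 0.70 (SE 0.16), and the lysosomal genes Mcoln1 and Lamp2 fell by 0.50 (SE 0.13) and 0.35 (SE 0.08). The medians of these 3 lists, and those of the integrated stress response, heat shock, NRF2, extracellular matrix and contractile lists, were below 0 and were above 0 when the mitochondrially encoded mRNAs were the reference, so no direction is given for them.

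Of 40 genes of heterochromatin and chromatin silencing, 13 rose (32.5%) and 10 fell (25%), against 18.2% and 17% of all genes tested (median 0.04). No direction is given for this list, since it was 9 and 13 (median −0.06) with DESeq2 size factors, 18 and 3 with library sizes alone and 14 and 0 with mitochondrially encoded mRNAs as reference. Without 24 h replicate 2 it was 8 and 6, with a median of −0.08, and without 12 h replicate 1 8 and 7. Mbd2, a reader of methylated DNA, rose from 372.4, 680.8 and 361.1 to 884.6, 1533 and 1030 (log2 1.29, SE 0.16, edgeR adjusted p = 3.2e-06), and Dnmt3b, a de novo DNA methyltransferase, from 61.9, 130 and 88.83 to 173.3, 272.5 and 239.5 (log2 1.30, SE 0.22). Both were still under their uninduced levels. The maintenance methyltransferase Dnmt1 fell by 0.52 (SE 0.10) and its partner Uhrf1 by 0.58 (SE 0.10), from 11790, 7355 and 9429 to 7087, 5763 and 6096, further below the uninduced 15480, 11720 and 12750.

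Of 17 circadian clock genes, 10 rose (58.8%), 0 fell and 7 did not pass (median 0.73), against 18.2% and 17% of all genes tested. The medians were 1.00, 0.06 and 0.86 in replicate pairs 1, 2 and 3. Relative to uninduced cells the list went from −1.34 at 6 h and −0.57 at 12 h to 0.29 at 24 h. Per2, a repressor of the clock, rose from 270.9, 576.8 and 276.7 to 801.7, 840.3 and 971.3 (log2 1.25, SE 0.20, edgeR adjusted p = 5.8e-05), around the uninduced 767, 765.8 and 752, and its Control value changed by 0.03. Cry2, its partner, rose by 1.15 (SE 0.20) and Bhlhe41 (DEC2), another repressor, by 1.34 (SE 0.38). The clock activator CLOCK:BMAL1 binds the E-box CACGTG. These letters, the same on both strands, were found in 5 of 14 clock promoters (35.7%), all 5 among the 9 whose gene rose. They were found in 6.05% of all promoters and in 7.53% of those of genes tested. The promoter of Ciart, a repressor of the clock that rose by 0.86 (SE 0.21), lies at chr3:95882229-95882478 on the minus strand and is shown, chosen after its values were seen, because it holds 3 such matches, in capitals.
Ciart promoter: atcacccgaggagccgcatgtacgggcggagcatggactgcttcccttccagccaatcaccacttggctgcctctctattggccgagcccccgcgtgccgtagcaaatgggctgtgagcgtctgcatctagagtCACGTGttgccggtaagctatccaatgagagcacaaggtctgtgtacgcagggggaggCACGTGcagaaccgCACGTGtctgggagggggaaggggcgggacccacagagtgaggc

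Of 28 Hox genes, the position factors of the body axis, 13 rose (46.4%), 0 fell and 15 did not pass (median 0.62). Of all genes tested, 18.2% rose and 17% fell. Without 12 h replicate 1, 8 Hox genes rose. Hoxa3 rose from 84.23, 204.1 and 120.9 to 309.4, 354.7 and 322.3 (log2 1.32, SE 0.26, edgeR adjusted p = 3.96e-04), above the uninduced 254.8, 265.3 and 270.9. Hoxb4 rose by 1.29 (SE 0.34), from 83.21, 284.1 and 136.9 to 286, 492.4 and 423.8. In the Control line 0 of the Hox genes passed the test, with a median of 0.07.

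The targeted repeat had not returned to its uninduced level at 24 h. GSAT_MM, the repeat family of the major satellite, stood at 335800, 824300 and 2004000 normalised counts at 12 h and at 504200, 463800 and 1567000 at 24 h, against 4233, 2234 and 3849 in uninduced cells and 1151 to 1968 in the Control libraries at the same times. The 12 h and 24 h groups overlapped, with replicate 3 highest in both, and the change of −0.29 (SE 0.61) did not pass (edgeR adjusted p = 0.733). Its share of all counts was 1.597% ± 1.117 (SD, n = 3) at 12 h and 1.508% ± 1.019 at 24 h (exact two-sided permutation test, p = 0.9). Gm10800 and Gm10801, gene models made of satellite-like sequence, changed by −0.29 (SE 0.63) and −0.23 (SE 0.38), which did not pass either. SYNREP_MM, the repeat family of the minor satellite, stood at 88950, 42700 and 59770 at 12 h and at 59340, 10860 and 34180 at 24 h. Uninduced cells had 686, 394.4 and 431.3. The fall was 0.97 on the log2 scale (SE 0.31, edgeR adjusted p = 0.0193), with overlapping groups. At 24 h SYNREP_MM was still 6.00 above uninduced cells on that scale. Its share of counts was 0.1024% and 0.0623% (p = 0.4 by the exact permutation test). MMSAT4 rose by 0.75 (SE 0.13), from 3660, 5229 and 4437 to 6277, 9511 and 6680, towards the uninduced 10080, 9765 and 9667. The housekeeping gene Hprt changed by −0.36 (SE 0.12, edgeR adjusted p = 0.0195), and by −0.26 in the Control line.

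Among repeat families as a whole, 15 (1.01%) were called higher and 88 (5.9%) lower (adjusted p below 0.05, log2 change over 0.5 in size). This split also turned with the scaling: it was 13 and 163 with DESeq2 size factors, 59 and 17 with library sizes alone and 28 and 7 with mitochondrially encoded mRNAs as reference. LTR retrotransposons made up 57 of the 88, out of 662 families tested, with 4 LTR families called higher and a median of −0.21. Under those 3 scalings the LTR median was −0.31, −0.02 and 0.05, so it changed sign, but it lay below the median of all genes each time. The number of LTR families called lower was 6 without 24 h replicate 2, 28 without 12 h replicate 3, 37 without 12 h replicate 1, 37 without 24 h replicate 3 and 164 without 24 h replicate 1. The endogenous retrovirus group ERVK held 26 called lower and 3 called higher of 279, ERV1 14 and 0 of 138, ERVL 5 and 0 of 109, and Gypsy 6 and 0 of 14. Of 25 IAP families, which are among the youngest mouse retroviruses, 2 passed as lower and 0 as higher (median −0.27). LINE families held 2 called lower of 158 and SINE families 0 of 37. The young LINE family L1Md_A changed by −0.23 (SE 0.14, edgeR adjusted p = 0.184), from 75050, 76160 and 85230 to 74110, 58400 and 68600. Of 56 tRNA-derived families, 13 were called lower and 0 higher (median −0.61, and −0.32 with mitochondrially encoded mRNAs as reference), led by tRNA-Thr-ACY at −1.29 (SE 0.29), which went from 603.8, 245.5 and 483.5 to 270.1, 91.78 and 185.4. Without 12 h replicate 1 or without 24 h replicate 2, 1 tRNA family was called, and 2 without 12 h replicate 3 or without the block. The largest rises were those of U5, the spliceosomal snRNA family, at 1.18 (SE 0.27), of UCON16 at 1.18 (SE 0.25), and of the LTR family RLTR1F_Mm at 1.01 (SE 0.16). RLTR1F_Mm, unlike the LTR families called lower, moved further from its uninduced 299.3, 228.2 and 256.8, with 512.5, 747.2 and 643.7 at 12 h and 1248, 918.7 and 1684 at 24 h.

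Among the rRNA families, the falls rested on 12 h replicate 3. LSU-rRNA_Hsa had 38870, 20320 and 3800000 normalised counts at 12 h and 31260, 19080 and 33870 at 24 h, and SSU-rRNA_Hsa had 8410, 6260 and 49990 and then 6007, 4163 and 7105. Together their share of counts was 1.824% ± 3.05 (SD, n = 3) and 0.06133% ± 0.01262 (p = 0.5 by the exact permutation test). The count of called families was 23 without 24 h replicate 2, 52 without 12 h replicate 3, 55 without 12 h replicate 1 and 247 without 24 h replicate 1. DESeq2 called 179. In the Control line 1 family was called, with 8 by DESeq2 and 62 at an unadjusted p below 0.05, and the change differed between the lines for 58 families, higher in the Activator line for 7 and lower for 51. All repeat families together took 28.46% ± 2.03 of counts at 12 h and 28.5% ± 1.425 at 24 h, against a mean of 21.17% in uninduced cells.

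**Figure D5:**
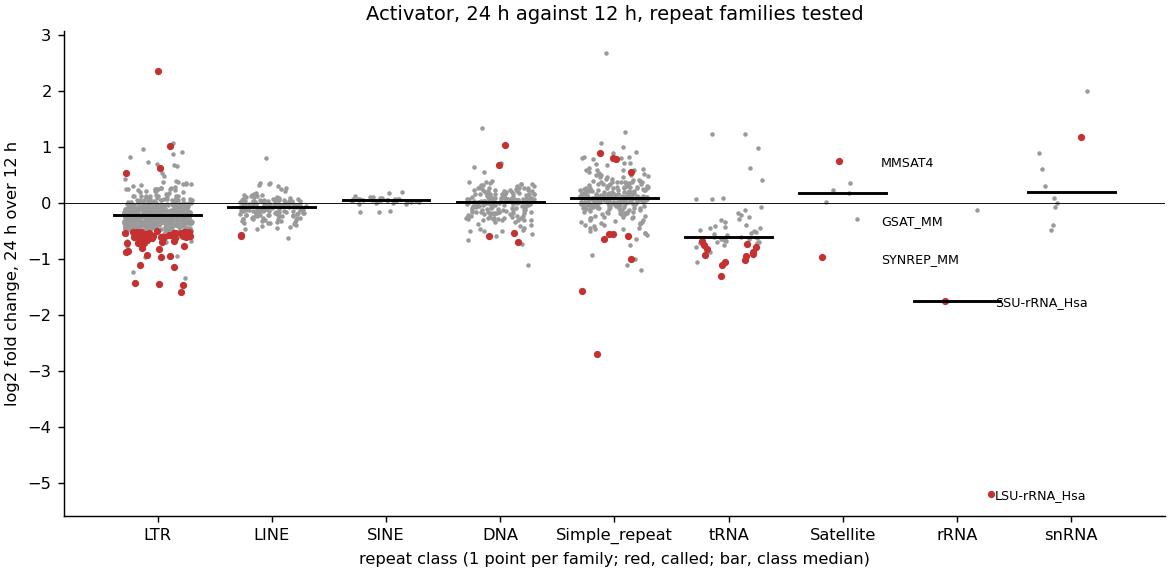
Log2 change from 12 h to 24 h of the repeat families of each class in the Activator line, 1 point per family, with the class median marked. LTR and tRNA families lie mostly below 0 under this scaling, with medians of −0.21 and −0.61 (0.05 and −0.32 with mitochondrially encoded mRNAs as reference), and SINE families lie around 0.05.

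Changes also varied with transcript length. In 5 groups of 2383 to 2385 genes ordered by exon length, the median change from 12 h to 24 h was −0.20 in the shortest group, −0.07, 0.01 and 0.08 in the next ones and 0.10 in the longest, against −0.05 in the shortest and −0.0017 in the longest group in the Control line. Its part in the results for the respiratory chain and the ribosomal proteins, whose genes are short, was not tested.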

How the data were processed

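Total RNA of the MEF lines was sequenced from stranded, rRNA-depleted paired-end libraries. The authors trimmed the reads with cutadapt, aligned them with STAR to the mouse genome (GRCm38/mm10) and ran TEtranscripts over genes and repeat families, and they deposited its raw counts, which were used here as they stand. How reads with several hits were handled, which annotation release was used and how strand was set are not given in the sources used here. The 36 libraries held 35092024 to 71148411 counts, and the 6 compared 49457642 to 59230051. A row with no name, 0.002098% to 0.004522% of counts, was left out. Of 54842 gene IDs, 54495 were found in GENCODE M21, which gave coordinates.

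Genes and repeat families were tested together with the edgeR quasi-likelihood test (version 4.0.16, robust, R 4.3.3) on 12 groups with the replicate number as a block, over all 36 libraries. Library sizes and TMM factors came from genes, low counts were filtered by filterByExpr, and p-values were adjusted by the Benjamini-Hochberg method over 30034 features. Standard errors were obtained by dividing each log2 fold change by the root of its F statistic. Genes were called at an adjusted p below 0.05, more than 2-fold and a mean normalised count above 100, repeat families at an adjusted p below 0.05 and a log2 change over 0.5 in size. Members of lists were counted as having risen or fallen at an adjusted p below 0.05. The interaction of time and line was tested in the same fit. The fit was tested on simulated data.

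Same-numbered Activator libraries at 12 h and 24 h deviated together, with correlations of 0.495, 0.586 and 0.223, each the highest of its row, and those of the Control line had 0.164, 0.0688 and 0.282. The pairing is thus a hint from the data and from the study's design, which used the block. P-values rest on a spread between replicate cultures that was estimated over all 36 libraries, after the block took out what libraries of the same number share. They do not measure the spread of the 6 compared libraries alone. With those 6 libraries alone, 6375 genes passed at an adjusted p below 0.05 in place of 10057, and without the block 6533. Named are 6 preset features, the 10 called genes that rose most and the 10 that fell most, provided they changed the same way in all 3 pairs (unnamed gene models left out), the 3 repeat families at each end, and members among the top 3 of each list and direction, a few of which are not reported here. Members and lists were chosen with earlier results of these data known. The alternatives were no block, fewer libraries, DESeq2 (1.42.0) and its size factors, no TMM, scaling to the 13 mitochondrially encoded mRNAs, no filter, other fold limits, repeats fitted without genes, and each library left out. Shares of counts were compared by exact permutation. Promoter sequences are from RefSeq (GRCm38.p6), with chromosome 18 left out. The Repressor line was not analysed here.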

Additional observations from a re-analysis of the deposited data

Results flagged for a closer look

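The change from 12 h to 24 h differed between the Activator and the Control line for 64 of the named features by the interaction test of edgeR, with adjusted p-values of at most 0.0474. Most named features were picked by the size of their change in the Activator line, which is part of this difference. That choice favours passing, so the number 64 is no separate support. Over all genes tested, the difference passed with a higher value in the Activator line for 9.19% and a lower value for 5.3%. The values below are Activator minus Control differences of log2 changes, 40 of them positive and 24 negative. They rest on 3 libraries in each of 4 groups. The lines also differed in the length of doxycycline treatment, which cannot be told apart from the effector.

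The largest positive differences were those of Has2 (3.15), Hmga2 (3.09), Apln (3.03), Ccn2 (3.03), Hspa1b (2.86), Irs1 (2.44) and Fosl1 (2.21). Foxf2 (2.12) and Bcl2l1 (2.11) followed. The signalling and matrix genes Thbs1 (1.98), Dusp6 (1.84), Ccl7 (1.75) and Csf1 (1.74) and the zinc finger gene Zfp970 (1.62) came next. Among regulators of chromatin and transcription, differences were found for Med22 (1.40), Dnmt3b (1.29), Mbd2 (1.28) and Cdk8 (0.81), and among Hox and clock genes for Hoxb4 (1.38), Hoxa3 (1.23), Per2 (1.23) and Cry2 (1.06). RNA processing and stress genes included Exosc7 (1.27), Utp3 (1.23), Phlda3 (1.30), Hspb8 (1.14), Srxn1 (1.13), Hspa5 (0.87) and Dnajb9 (0.78), and metabolism and autophagy were represented by Hk2 (1.25) and Ulk1 (0.74). In replication, repair and mitosis, positive differences were those of Xrcc2 (1.03), Wdhd1 (0.99), Cdc25b (0.94), Tk1 (0.93), Sgo2a (0.85) and Chek2 (0.73). The repeat families were U5 (1.38), UCON16 (1.08) and RLTR1F_Mm (0.81).

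Negative differences were found for the replication, repair and mitosis genes Cdc45 (−0.89), Cdc25c (−0.86), Smc2 (−0.80), Brca2 (−0.77), Pold2 (−0.77), Mcm5 (−0.68), Aurka (−0.63) and Fancd2 (−0.47), and for Uhrf1 (−0.44). Those of lipid synthesis were Scd2 (−1.55), Fdps (−1.54) and Mvk (−1.26). Others were the inflammatory and matrix genes Relb (−0.96) and Sparc (−0.89), the apoptosis gene Diablo (−0.78), the chaperones Hsp90b1 (−0.74) and Canx (−0.52), the lysosomal genes Mcoln1 (−0.85) and Lamp2 (−0.59), and Atp5g2 (−0.64) and Gars (−0.57). LSU-rRNA_Hsa (−5.54), SSU-rRNA_Hsa (−2.28) and mt-Rnr1 (−2.77) were high in Activator 12 h replicate 3 alone among the 6 Activator libraries compared.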

How the results depend on the processing

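Without the replicate block, 6533 genes passed at an adjusted p below 0.05 in the Activator line, 438 early risers fell, 4 Control genes were called, and 37 repeat families differed between the lines. No other count over all genes or all repeat families moved by more than 1.5 times. Counts within several lists and families did, as given beside them. With the 18 Activator libraries alone, 4 early risers rose. With the 12 libraries at 12 h and 24 h, 10 Control genes were called and 17 repeat families differed between the lines, and with the 6 libraries compared 6375 genes passed. With DESeq2, 179 repeat families and 66 Control genes were called, 134 repeat families differed between the lines and 1152 early risers fell. With its size factors in edgeR these were 176, 37, 99 and 1196. Without TMM, 22 repeat families differed and 359 early risers fell. With mitochondrially encoded mRNAs as reference, 5965 genes passed, 35 repeat families and 3 Control genes were called, and 1501 genes and 9 repeat families differed between the lines. That scaling gave 6551 early fallen genes, 3700 then higher and 1 then lower, and 588 early risers, 1 then higher and 87 then lower. Without a filter, 2960 Activator and 43 Control genes were called, 36 repeat families differed, and there were 5789 early fallen genes and 10508 early risers, 19 then higher and 1820 then lower. With repeat families fitted without genes, 54 were called and 9 differed. A fold limit of 1.5 gave 3296 Activator genes, 50 Control genes and 2362 genes that differed, and a log2 limit of 1 gave 21 repeat families called and 18 that differed. The cause was not tested in any of these cases, beyond the fewer or more features that a filter or limit admits.

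Leaving out each library in turn gave 558 to 1701 called genes, 5855 to 11346 genes that passed, 23 to 247 called repeat families, 0 to 34 called Control genes, and 601 to 1607 genes and 21 to 194 repeat families that differed between the lines. The early fallen genes numbered 2903 to 2911, with 1544 to 2568 then higher and 0 to 5 then lower, and the early risers 1243 to 1247, with 1 to 8 then higher and 275 to 893 then lower. The change in the share of counts from 12 h to 24 h, in percentage points, was −0.9229 to 1.102 for repeat families, −0.6767 to 0.504 for GSAT_MM, −0.06215 to −0.0166 for SYNREP_MM, −0.2888 to 0.08108 for mitochondrially encoded mRNAs and −2.651 to −0.001641 for rRNA families. Of 2328 alternative values of 165 named features, 2032 kept their direction and their side of the threshold, 295 kept their direction and no longer passed, and 1 turned, Bax at 0.02473 with mitochondrially encoded mRNAs as reference. GSAT_MM had at least 335800 normalised counts in each of the 6 libraries, and its change had an SE of 0.61 on the log2 scale.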

Other observations

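Several gene families were looked at after the values were seen, and are given as counts with no test of the family. The HIN-200 family of DNA sensors and nuclear interferon-inducible proteins moved in both directions. All 14 genes tested passed, 9 higher and 5 lower at 24 h than at 12 h. Ifi204 went from 544.9, 1121 and 715 normalised counts at 12 h to 1577, 2272 and 1986 at 24 h (log2 1.30, SE 0.17), Ifi211 from 250.7, 430.4 and 240.3 to 640.1, 783.9 and 772.6 (log2 1.27, SE 0.18), and Aim2, the cytosolic DNA sensor of the inflammasome, from 285.2, 365.9 and 310.2 to 457.2, 575.5 and 474.6 (log2 0.65, SE 0.15). The 5 that fell, Ifi206, Ifi208, Ifi209, Ifi213 and Ifi214, had means of 1.001 to 24.05 in uninduced cells. Reads of these paralogs may be shared. The 9 rises passed under each scaling and omission tried, and the 5 falls numbered 1 without the replicate block, 0 without 24 h replicate 2 and 0 with mitochondrially encoded mRNAs as reference.

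Of 9 frizzled receptors of WNT signalling, 6 rose and 0 fell (median 0.73), with 2 rises without the replicate block, 3 without 12 h replicate 1 and 3 without 24 h replicate 2. Of 35 forkhead factors, 14 rose and 3 fell (median 0.54), with 8 rises without 12 h replicate 1 and 9 without the block. Of 187 olfactory receptor genes, which fibroblasts do not use, 60 fell and 1 rose (median −0.91), and of 66 vomeronasal receptor genes 19 fell and 2 rose (median −0.95). Their medians at 6 h were 6.44 and 5.58 above uninduced cells on the log2 scale. Such genes could pass the count filter through the Activator libraries in which they were high. Of all 7633 genes with at most 10 uninduced counts, 1545 fell and 103 rose (median −0.65), so falls were not particular to these receptors. Of all genes tested, 17% fell and 18.2% rose. The olfactory falls numbered 28 without the block, 25 without 24 h replicate 2 and 15 with mitochondrially encoded mRNAs as reference, and the vomeronasal falls 8, 6 and 5. Among proliferation markers, Mki67 had 17790, 13380 and 17390 at 12 h and 11920, 11560 and 10960 at 24 h (log2 −0.49, SE 0.11), and Ccnb1 (cyclin B1) 4725, 2887 and 4063 and then 2586, 2061 and 2481 (log2 −0.70, SE 0.12). Top2a (topoisomerase II alpha) had 17770, 13590 and 16200 and then 12820, 14710 and 12560, a change of −0.24 (SE 0.12) that did not pass (edgeR adjusted p = 0.108).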
